A study of Mus musculus with 6 samples.

Results

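Cholesterol enters and leaves the epithelium of the small intestine through a short chain of transporters, an esterifying enzyme and sterol sensors, and 10 genes of that chain are described here. They are Npc1l1 and Scarb1 for uptake, Soat2 for esterification, Abca1, Abcg1, Abcg5 and Abcg8 for efflux, Nr1h3 and Nr1h2 for sterol sensing, and Mylip, a target of these sensors. They were taken by symbol from a table of 45777 genes, all 10 were found, and all 10 were among the 18456 genes with enough reads to be tested. The 6 libraries of total RNA came from mouse small intestine, 3 labelled as GFP (green fluorescent protein) control and 3 labelled PKCzeta overexpression, after a kinase of the atypical protein kinase C class whose gene is Prkcz. The letters DIO in all 6 titles are left unexplained there, and strain, sex, age, diet, gut segment and the means of overexpression are not stated. The question the labels pose is which genes differ with Prkcz overexpression.

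In the absorptive cell, the enterocyte, NPC1L1 takes up cholesterol and plant sterols at the brush border and SOAT2 esterifies the cholesterol for packing into chylomicrons. ABCG5 and ABCG8 join into a single exporter that returns plant sterols and cholesterol to the gut lumen, while ABCA1 loads cholesterol onto apolipoprotein A-I to make high-density lipoprotein. The nuclear receptors LXRalpha (Nr1h3) and LXRbeta (Nr1h2) bind oxysterols and switch on Abca1, Abcg1, Abcg5, Abcg8 and Mylip, and the last of these encodes the ubiquitin ligase IDOL.

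The libraries held between 77573133 and 93742978 counted reads. Values are CPM, counts scaled to library size by TMM, with the group means ± SD of n = 3, and differences are log2 fold changes, PKCzeta-labelled minus GFP-labelled, with the standard error (SE) from edgeR's quasi-likelihood test. The TMM factors themselves did not overlap, at 0.929, 0.974 and 0.881 in GFP-labelled and 1.002, 1.049 and 1.194 in PKCzeta-labelled libraries. A larger factor lowers the CPM of its library. The targeted gene did not follow the labels, with Prkcz at 70.5, 98.6 and 96.9 CPM in GFP-labelled and 82.5, 100.07 and 57.0 CPM in PKCzeta-labelled libraries, so every direction below is one between labels. The leading digit of the replicate number is 1 or 3 under the GFP label and 2 or 4 in the PKCzeta-labelled titles. If it marks a cage or batch, that and the label cannot be told apart. Since no label ties a library to an animal of its own, the p-values speak only of the spread among these 6 samples, which may be technical.

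A group of 5 of the 10 genes stood lower in every PKCzeta-labelled library than in any GFP-labelled one. They were Npc1l1, Soat2, Abca1, Abcg5 and Abcg8, with means 1.75 to 2.18 times as high under the GFP label, whereas Scarb1, Abcg1, Nr1h3, Nr1h2 and Mylip overlapped between the labels. None of the 10 passed an adjusted p of 0.05 in edgeR, which 0 of 18456 genes did (0%). At an unadjusted edgeR p under 0.05 there were 5 of 10 lower and 0 of 10 higher, where 3.07% of all tested genes were lower and 2.41% higher, or 5.48% in either direction. Group ranges did not overlap, with the PKCzeta label lower, for the same 5 of 10 members and for 5.66% of all tested genes. They did so with the PKCzeta label higher for 0 of 10 members and 4.72% of all. The median log2 fold change was -0.51 over the 10 genes and 0.035 over all tested genes. The 10 genes and the lists below were chosen with earlier results of these data known. Shares set beside those of all genes are therefore descriptions and not tests.

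**Figure D1:**
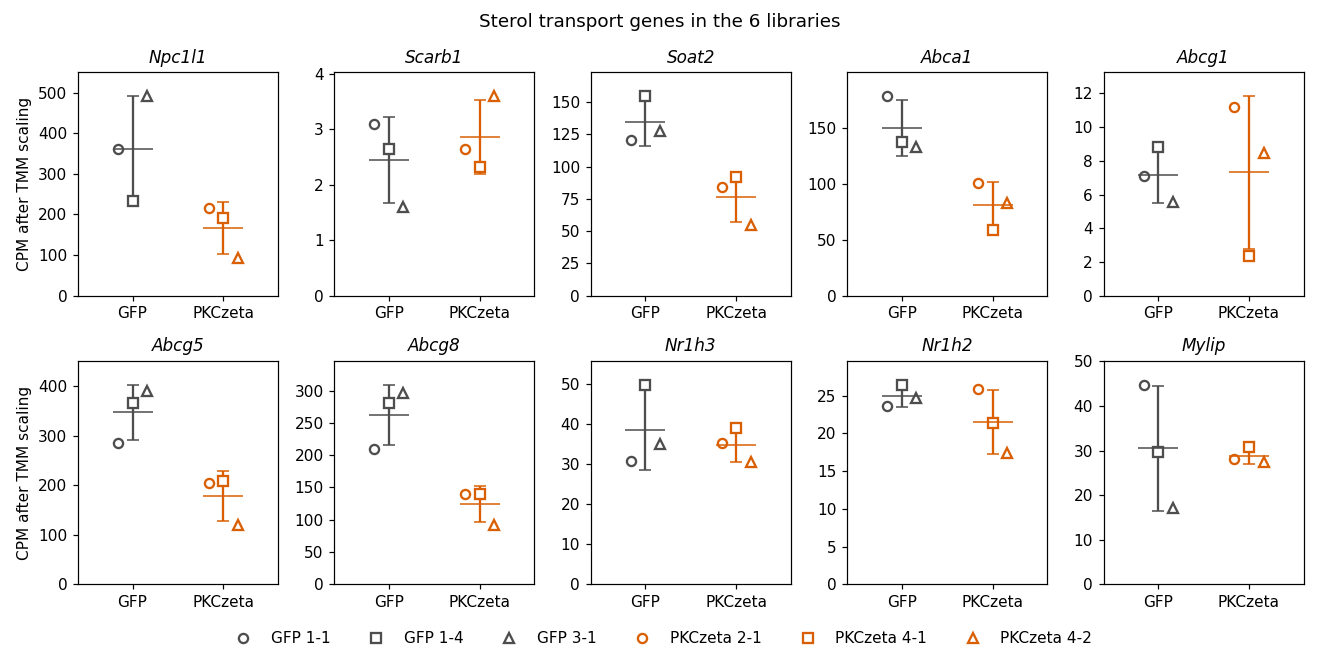
Level of each of the 10 genes in CPM after TMM scaling (linear axes from 0), one open symbol per library, with the mean as a horizontal line and the SD as a bar, n = 3 per label. Npc1l1, Soat2, Abca1, Abcg5 and Abcg8 do not overlap between the labels, and the other 5 genes do.

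Levels of different genes can be compared only per length, for which the deposited TPM was used. Over the 6 libraries Abcg5 was the most abundant at 134 ± 43.7 TPM (SD, n = 6), and it exceeded Npc1l1 in every library, by 1.49 to 2.97 times. Npc1l1 (70.1 ± 30.3), Abcg8 (65.6 ± 23.7) and Soat2 (61.1 ± 17.8 TPM) followed and overlapped widely. Nr1h3 came next at 26.3 ± 5.85 TPM, below every value of Soat2 and above every value of Nr1h2 (14.5 ± 1.21). Nr1h2, Abca1 (14.0 ± 4.42) and Mylip (12.8 ± 3.92 TPM) overlapped one another. Abcg1 at 1.59 ± 0.714 and Scarb1 at 1.39 ± 0.520 TPM were far below the rest and overlapped each other. The 6 libraries span both labels, so these SDs hold the difference between labels as well.

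Abcg5 and Abcg8 lie head to head on chromosome 17, and their start regions are shown because both genes share them. In mm10 (the assembly GRCm38) Abcg5 (Entrez 27409) runs on the minus strand from 84658174 to 84683011 and Abcg8 (Entrez 67470) on the plus strand from 84676302 to 84700333. The main start sites are 110 bases apart, so the RefSeq windows of 250 bases before to 50 after each start overlap over 209 bases. Capitals mark the letters AGATAA, the core that GATA factors bind, on either strand, and the 3 matches are the same 3 places read from both sides.
Abcg8, chr17:84682871-84683170, plus strand: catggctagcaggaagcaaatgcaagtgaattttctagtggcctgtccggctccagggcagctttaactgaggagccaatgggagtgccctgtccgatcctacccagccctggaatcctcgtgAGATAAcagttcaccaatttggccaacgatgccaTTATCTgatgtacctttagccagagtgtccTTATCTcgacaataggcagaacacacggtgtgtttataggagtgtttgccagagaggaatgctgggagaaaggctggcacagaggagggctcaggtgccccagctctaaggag
Abcg5, chr17:84682962-84683261, minus strand: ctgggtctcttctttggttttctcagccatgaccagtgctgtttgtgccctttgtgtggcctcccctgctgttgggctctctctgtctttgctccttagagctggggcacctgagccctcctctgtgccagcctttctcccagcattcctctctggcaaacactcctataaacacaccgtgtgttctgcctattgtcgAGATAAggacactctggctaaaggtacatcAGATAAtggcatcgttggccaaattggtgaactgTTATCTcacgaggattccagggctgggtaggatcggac
AGATAA or its reverse complement TTATCT occurs in 11.2% of 32851 windows of this length, and 35 of them (0.107%) hold 3 or more. A match is a description of the letters and not a shown binding site.

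Abcg8 was at 209, 281 and 297 CPM in GFP-labelled replicates 1-1, 1-4 and 3-1. It was at 140.0, 139.9 and 92.0 CPM in PKCzeta-labelled replicates 2-1, 4-1 and 4-2. The highest PKCzeta-labelled library lay well under the lowest GFP-labelled one, and the spread within a label was smaller than the gap between the means, 262 ± 46.7 and 124 ± 27.7 CPM. On the log2 scale the difference was -1.08 (SE 0.22, 95% interval -1.59 to -0.57), with an unadjusted p of 0.00122 and an adjusted p of 0.858 in edgeR's test. DESeq2 gave the same difference (-1.10) an adjusted p of 0.0197, the only call for any of the 10 genes under any alternative tried, while the other alternatives gave adjusted p values of 0.549 or more. In all, DESeq2 called 76 of 18456 genes, 36 lower and 40 higher.

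Its partner Abcg5 was at 284, 366 and 391 CPM under the GFP label. Under the PKCzeta label it was at 204, 209 and 119 CPM. Both partners were lowest in PKCzeta-labelled replicate 4-2 and highest in GFP-labelled replicate 3-1. The means were 347 ± 55.8 and 177 ± 50.6 CPM, giving -0.97 as the log2 fold change (SE 0.25, edgeR adjusted p 0.858). Within a library the TPM of Abcg8 was 0.443 to 0.510 times that of Abcg5, and the log2 ratio of their CPM was -0.41 ± 0.032 under the GFP and -0.50 ± 0.11 under the PKCzeta label (exact two-sided permutation p = 0.4, adjusted p = 0.9 over 9 pairs, n = 3 per label). A far upstream start of Abcg8 lies inside Abcg5, so the gene spans overlap over 6710 bases on opposite strands, but in GENCODE only 82 exon bases of the 2712 of Abcg5 are shared. The library kit keeps the strand, per the labels, but no source used here says whether counting made use of it.

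Npc1l1 (Entrez 237636, chromosome 11 from 6211011 to 6230245, minus strand), the target of the drug ezetimibe, was at 361, 233 and 492 CPM under the GFP label. Under the PKCzeta label it was at 215, 192 and 92.5 CPM. The labels were separated only narrowly, by the step from 233 to 215 CPM, and Npc1l1 varied more within a label than the exporter pair did. The means were 362 ± 129 and 166 ± 65.1 CPM, giving -1.12 as the log2 fold change (SE 0.37, 95% interval -1.97 to -0.27, edgeR unadjusted p 0.0158, adjusted p 0.860). Without GFP-labelled replicate 3-1 the log2 fold change was -0.83 with an unadjusted p of 0.0702. Within each label, Npc1l1 was highest where the share of reads from the 2 mitochondrial ribosomal RNAs was highest and lowest where it was lowest. That share was 4.401%, 1.35% and 4.66% under the GFP label and 4.44%, 2.33% and 0.956% under the PKCzeta label, in the order above, and its part in the result was not tested.

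The other uptake gene, Scarb1, encodes SR-BI, a receptor for high-density lipoprotein (Entrez 20778, chromosome 5 from 125277087 to 125341094). It had 132 to 377 reads per library, or 3.10, 2.64 and 1.598 CPM under the GFP label and 2.64, 2.32 and 3.61 CPM under the PKCzeta label. The ranges overlapped, and the log2 fold change of 0.23 (SE 0.34, 95% interval -0.55 to 1.00) covers no difference as well as a 2-fold one. In the log2 ratio of Npc1l1 to Scarb1 the labels did not overlap, at 7.18 ± 0.94 and 5.79 ± 0.96, yet 3 against 3 libraries cannot give an exact p below 0.1, which this ratio reached (adjusted p = 0.9 over 9 pairs).

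Soat2 (Entrez 223920, chromosome 15 from 102150415 to 102163469), whose enzyme esterifies absorbed cholesterol, was at 121, 155 and 128 CPM under the GFP label. Under the PKCzeta label it was at 83.9, 91.6 and 54.8 CPM, again lowest in replicate 4-2. On the log2 scale the difference was -0.81 (SE 0.22, 95% interval -1.31 to -0.31, edgeR unadjusted p 0.00594, adjusted p 0.858). Soat1, the form of most other tissues, was at 21.4 ± 4.17 and 26.7 ± 6.34 CPM (log2 fold change 0.32, SE 0.23) and was named after its values were seen.

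Abca1 (Entrez 11303, chromosome 4 from 53030789 to 53159988, minus strand) was at 178, 137 and 133 CPM under the GFP label. Under the PKCzeta label it was at 100.4, 58.4 and 82.7 CPM. Unlike the exporter pair, it was lowest in PKCzeta-labelled replicate 4-1, and the step between the labels ran from 133 to 100.4 CPM. The means were 149 ± 25.0 and 80.5 ± 21.1 CPM, giving -0.89 as the log2 fold change (SE 0.23, edgeR unadjusted p 0.00426, adjusted p 0.858). Its start region is shown because it holds the repeat through which LXR is known to act on this gene, in capitals, 67 to 53 bases before the start site.
Abca1, chr4:53159846-53160145, minus strand: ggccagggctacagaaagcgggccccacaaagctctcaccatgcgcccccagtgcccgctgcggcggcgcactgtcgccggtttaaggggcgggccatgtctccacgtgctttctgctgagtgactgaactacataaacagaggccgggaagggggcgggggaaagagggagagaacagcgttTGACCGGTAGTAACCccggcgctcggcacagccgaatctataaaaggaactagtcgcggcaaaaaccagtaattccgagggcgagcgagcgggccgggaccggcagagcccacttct
The letters searched, GGTNA followed after 5 bases of any kind by GGTNA, on both strands, were chosen with this element in view and occur in 0.718% of the 32851 windows. RefSeq windows were matched for 7 of the 10 genes, and none of the others, including those of Abcg5 and Abcg8, held these letters, which says nothing about LXR at sites outside them.

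Abcg1 (Entrez 11307, chromosome 17 from 31057694 to 31117984), which passes cholesterol from macrophages to high-density lipoprotein, was at 7.12, 8.82 and 5.54 CPM under the GFP label. Under the PKCzeta label it was at 11.2, 2.32 and 8.47 CPM. Replicates 2-1 and 4-1 of one label thus held the highest and the lowest value of all 6 libraries. On the log2 scale the difference was 0.032 (SE 0.51, 95% interval -1.14 to 1.202), too wide to show or exclude a difference of the size seen in Abca1, and without PKCzeta-labelled replicate 4-1 it was 0.45 and without 2-1 it was -0.48. The log2 ratio of Abca1 to Abcg1 was 4.39 ± 0.38 and 3.70 ± 0.82 (exact two-sided permutation p = 0.3, adjusted p = 0.9 over 9 pairs, n = 3 per label).

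Both LXR genes overlapped between the labels. Nr1h3 (Entrez 22259, chromosome 2 from 91184061 to 91202829) was at 30.9, 49.97 and 35.1 CPM under the GFP label and at 35.4, 39.0 and 30.5 CPM under the PKCzeta label. Its log2 fold change was -0.14 (SE 0.21, 95% interval -0.64 to 0.35). Nr1h2 (Entrez 22260, chromosome 7 from 44549616 to 44553968) was at 24.9 ± 1.42 and 21.5 ± 4.23 CPM (log2 fold change -0.21, SE 0.19, 95% interval -0.66 to 0.23). Mylip (Entrez 218203, chromosome 13 from 45389742 to 45411940) spanned 17.03 to 44.8 CPM among the GFP-labelled libraries and only from 27.4 to 30.9 within the others, and its log2 fold change was -0.084 (SE 0.32, 95% interval -0.81 to 0.65). In all, 8 of 10 genes had a log2 fold change below 0, against 45.7% of all tested genes, and with TPM or pan-epithelial scaling 6 did, as Nr1h3 and Mylip turned. The log2 ratio of Abca1 to its regulator Nr1h3 was 1.97 ± 0.54 under the GFP and 1.17 ± 0.51 under the PKCzeta label (exact two-sided permutation p = 0.2, adjusted p = 0.9 over 9 pairs, n = 3 per label).

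**Figure D2:**
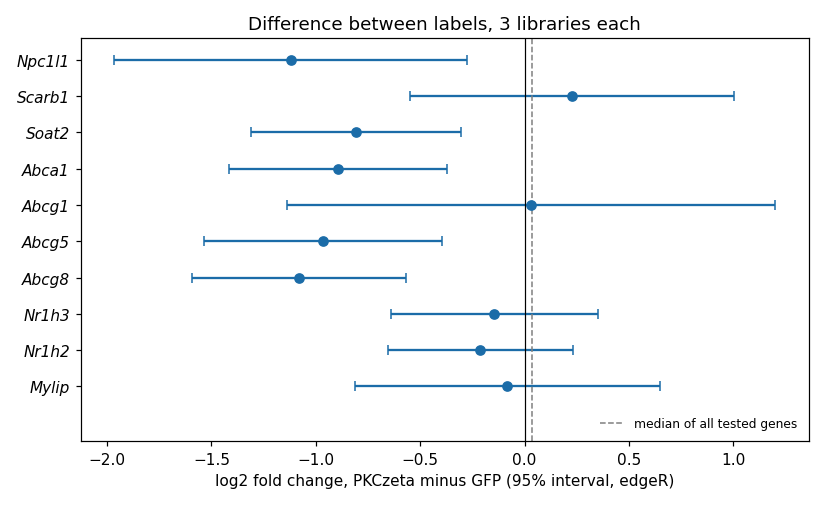
Log2 fold change of each of the 10 genes, PKCzeta-labelled minus GFP-labelled, with its 95% interval from edgeR (3 libraries per label), and the median of all tested genes (0.035) as a dashed line. The intervals of Npc1l1, Soat2, Abca1, Abcg5 and Abcg8 lie below 0, before adjustment over the 18456 genes, and the other 5 include it.

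Beside the lower level of these 5 genes stood a lower level of enterocyte markers. In a piece of tissue, fewer cells of a type and less RNA per cell cannot be told apart. The summed level of 10 enterocyte markers was 29773 to 36760 CPM under the GFP label and 12354 to 27804 CPM under the PKCzeta label. Of these markers 10 of 10 were lower, against 45.7% of all tested genes, and none was at 0. The sum was mostly Fabp2 (3146 to 15336.5 CPM) and Sis (4550 to 10119.5 CPM). Alpi, Fabp2 and Krt20 did not overlap between the labels, and the other markers did, among them Sis (log2 fold change -0.26), Fabp1 (-0.32) and Slc5a1 (-0.32). The summed level of 8 markers of all intestinal epithelium overlapped, at 11212 to 15277 and 11164 to 12262 CPM, with 6 of 8 lower. Set against the mean log2 CPM of these 8 epithelial markers, Abcg8 was at -1.96, -2.01 and -1.92 under the GFP label and -2.63, -2.61 and -3.33 under the PKCzeta label, a difference of -0.89. Abcg5, Abca1 and Soat2 likewise did not overlap, with differences of -0.80, -0.72 and -0.63, while Npc1l1 did overlap (-0.95). Each of the 4 reached the exact p of 0.1, the smallest that 3 against 3 can give (adjusted p = 0.4 over 20 tests). The share of all tested genes without overlap was not counted relative to these or to the enterocyte markers, so such counts have no background.

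Set against the 10 enterocyte markers, the same genes overlapped between the labels. The difference was -0.043 for Abcg8, 0.049 for Abcg5, -0.098 for Npc1l1, 0.21 for Soat2 and 0.13 for Abca1 on the log2 scale. Among these 10 markers the lactase gene Lct had the widest ratio of highest to lowest library, from 2.31 to 200.3 CPM. Without Lct, an alternative chosen after the data were seen, the differences were -0.33, -0.24, -0.39, -0.073 and -0.15, still with overlap. The smallest exact two-sided permutation p of these 5 genes was 0.6 with Lct and 0.4 without it (n = 3 per label). All the remaining genes stood higher relative to these markers. Nr1h3 did so by 0.93 with Lct (exact p = 0.1, adjusted p = 0.4 over 20 tests, groups apart) and by 0.64 without it (exact p = 0.2). With Lct the difference was 1.30 for Scarb1, 1.07 for Mylip, 0.83 for Abcg1 and 0.82 for Nr1h2, each with overlap. With the enterocyte score as a covariate in edgeR, 2 of the 10 genes were lower at an unadjusted p under 0.05, Abcg8 (-0.80, p 0.0463) and Abca1 (-1.24, p 0.0113), both with an adjusted p of 1. The share of all tested genes at that level was not counted for this model, so the 2 of 10 have no background beside them. Abca1 had -1.24 in this model but 0.13 relative to the same 10 markers, and the reason was not tested.

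**Figure D3:**
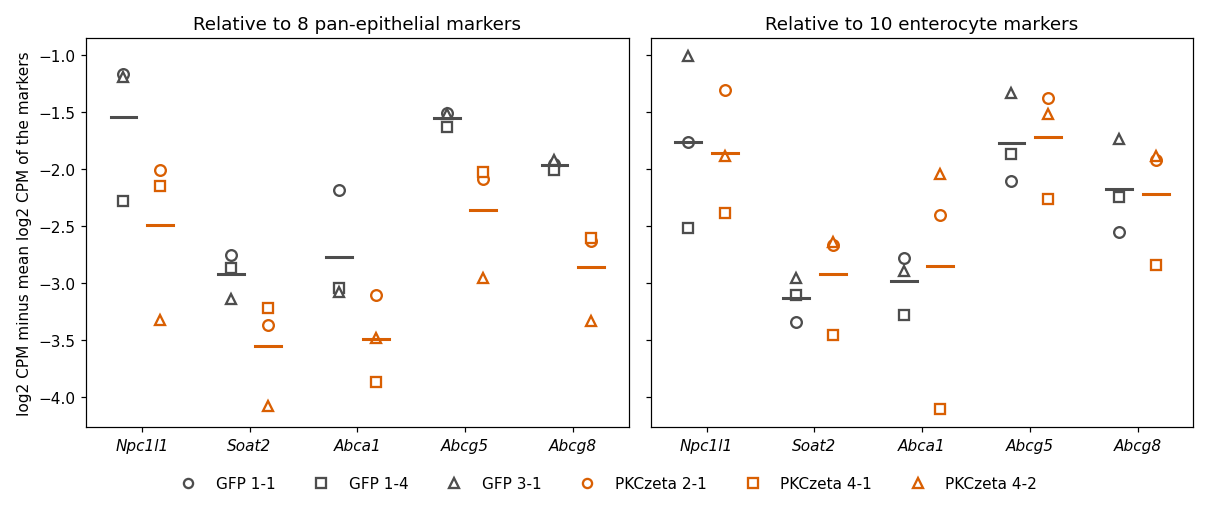
Log2 CPM of 5 genes minus the mean log2 CPM of 8 pan-epithelial markers (left) or 10 enterocyte markers (right), one symbol per library and a bar at each label's mean, n = 3. On the left Soat2, Abca1, Abcg5 and Abcg8 are lower in every PKCzeta-labelled library, and on the right all 5 genes overlap. The share of all tested genes without overlap on these scales was not counted.

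Macrophages also express Abca1, Abcg1 and Nr1h3. All 11 macrophage markers had a log2 fold change above 0, where 45.7% of all tested genes were below 0, and none had a level of 0. The changes ran from 0.019 (Adgre1) to 0.87 (Fcgr1), and the smallest unadjusted edgeR p was 0.0651 (Mrc1). Their summed level was 171 to 289 CPM in GFP-labelled and 288 to 357 CPM in PKCzeta-labelled libraries, which overlap. The 5 neutrophil markers summed to 1.38 to 4.27 and 5.06 to 42.6 CPM. The part of these cells in the results was not tested. Hepatocyte markers summed to at most 10.1 CPM, and of 6 pancreatic acinar markers Prss1, Pnlip, Amy2a5 and Cela3b were at 0 in all 6 libraries, with a sum of at most 0.265 CPM. The 4 markers of the distal small intestine summed to 4574 to 6289 CPM and the 5 of the proximal part to 41.1 to 73.6 CPM, overlapping between the labels. The proximal sum was mostly Slc40a1, at 37.0 to 70.6 CPM. Within these lists Gata4 did not overlap between the labels (log2 fold change -2.67, SE 0.58). Fgf15 of the distal list did overlap, at 21.9, 6.27 and 118.5 CPM under the GFP and 7.69, 4.97 and 10.8 CPM under the PKCzeta label. Its log2 fold change was -2.64 (SE 1.01, edgeR unadjusted p 0.0357, adjusted p 0.877), with the highest value in GFP-labelled replicate 3-1. The part of gut position in the results was not tested.

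The genes with the pattern most like Abcg8 over the 6 libraries were sought among 12803 genes with a proper symbol and a mean of at least 1 CPM, by the root mean square difference of log2 CPM after centring each gene. Abcg5 was the closest of all (0.081, where Abcg8 itself varied by 0.60 around its mean), although their overlap in the genome stands beside this. Then came Alpi, the intestinal alkaline phosphatase of the brush border (0.090), Shroom1 (0.12), Gask1b (0.15) and the sodium-dependent sugar transporter gene Slc5a9 (0.16). Soat2 ranked 12th of the 12803, Npc1l1 521st and Abca1 1026th. Npc1l1 was closest to Anpep, aminopeptidase N of the brush border (0.12), then to the prostaglandin transporter gene Slco2a1, Usp2, Noct and Aplp1 (0.14 to 0.15). Alpi and Anpep are also among the 10 enterocyte markers used above. Within the GFP label Npc1l1 was lowest in replicate 1-4 and Abcg8 in 1-1. This is a description over 6 libraries, and the log2 ratio of Abcg8 to Npc1l1 did not differ beyond its spread (-0.41 ± 0.59 and -0.36 ± 0.32, exact two-sided permutation p = 0.9, n = 3 per label).

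**Figure D4:**
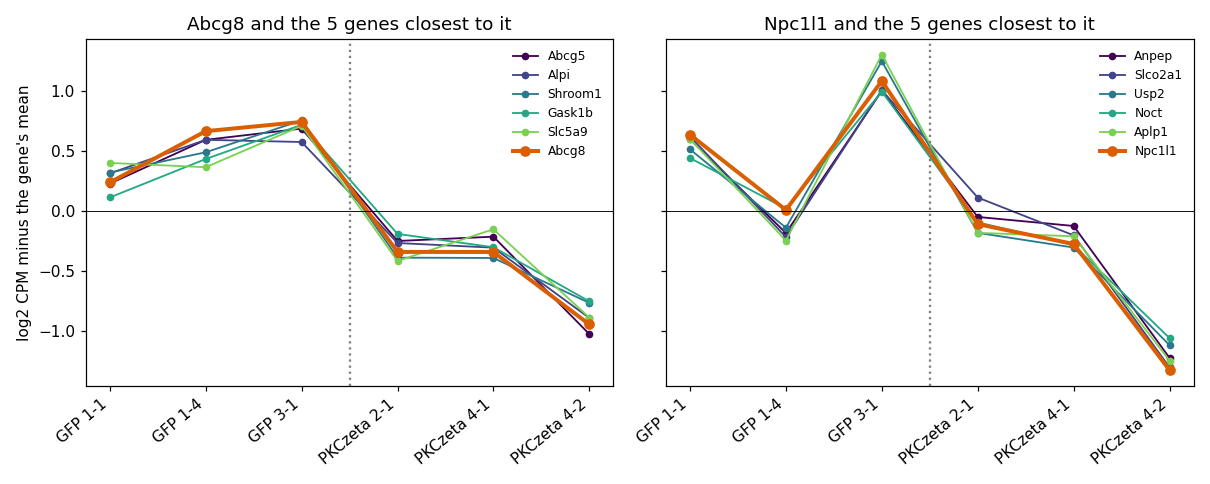
Log2 CPM of Abcg8 (left) and Npc1l1 (right), in orange, and of the 5 genes closest to each, minus each gene's own mean, in the 6 libraries, with a dotted line between the labels. Abcg8 and its neighbours are lowest in PKCzeta 4-2, and the Npc1l1 profile has its peak in GFP 3-1 and a dip in GFP 1-4.

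LXR target genes outside the chain were evenly divided in direction. Of 14 tested, 7 were lower, against 45.7% of all tested genes, and 7 higher (median log2 fold change 0.011). At an unadjusted edgeR p under 0.05, 0 were higher and 1 was lower, against 2.41% and 3.07% of all. That gene was Lpcat3, an enzyme of membrane phospholipids, at 191, 218 and 222 CPM under the GFP label and 141, 150 and 131 CPM under the PKCzeta label (log2 fold change -0.58, SE 0.14, edgeR adjusted p 0.858). Srebf1, the lipogenic target, had -0.34 (SE 0.19) and Arl4c 0.49 (SE 0.28). Of 13 tested partners and coregulators of LXR, 0 were at an unadjusted edgeR p under 0.05, against 5.48% of all tested genes. The partner receptor gene Rxra was at 134 ± 16.3 and 113 ± 13.9 CPM with overlap. Rxrb, another partner, stood at 13.4 ± 1.10 and 15.7 ± 0.906 CPM, higher under the PKCzeta label without overlap (log2 fold change 0.23, SE 0.18).

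Genes of NPC1L1 endocytosis and of sterol transfer inside the cell, taken as 1 list, were mixed. Of 20 tested, 14 were lower, against 45.7% of all tested genes, and 6 higher (median -0.18, but 0.0070 with pan-epithelial scaling and 0.045 on log2(TPM + 1)). At an unadjusted edgeR p under 0.05, 4 were lower and 1 higher, against 3.07% and 2.41% of all. The Aster proteins move cholesterol from the plasma membrane to the endoplasmic reticulum, and of their 3 genes Gramd1b and Gramd1c had the lower mean under the PKCzeta label. Gramd1b, named after its values were seen, was at 80.8 ± 14.8 and 52.6 ± 19.8 CPM with overlap (-0.62, SE 0.28). Gramd1c was at 30.3 ± 3.32 and 18.3 ± 3.75 CPM (-0.72, SE 0.20), and Gramd1a, the lowest of the 3 in CPM, at 5.09 ± 1.74 and 10.1 ± 2.06 CPM (0.99, SE 0.30), neither overlapping between the labels. Myo5b, the motor of apical recycling, had -0.55 (SE 0.18). In edgeR no adjusted p here was under 0.858.

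Genes of lipoprotein assembly and of cholesterol synthesis stood on opposite sides of 0. All 5 tested genes of the first list were lower (median -0.91), against 45.7% of all tested genes. At an unadjusted edgeR p under 0.05, 4 of them were lower, against 3.07% of all. The median was -0.49 with the enterocyte score as a covariate and -1.14 to -0.68 without a single library. Apoa1, the acceptor of ABCA1's cholesterol, was at 6049 ± 289 and 3394 ± 1302 CPM (log2 fold change -0.83, SE 0.32, edgeR adjusted p 0.877). Of 19 tested genes of cholesterol synthesis, 5 were lower, against 45.7% of all tested genes, and 14 were higher (median 0.29). At an unadjusted edgeR p under 0.05, 3 were higher, against 2.41% of all, and 0 lower. The median was 0.13 without PKCzeta-labelled replicate 2-1, 0.18 without GFP-labelled replicate 1-4 and 0.49 on log2(TPM + 1). Fdps, farnesyl diphosphate synthase, was at 57.8 ± 5.93 and 81.1 ± 5.23 CPM (0.49, SE 0.15), Pmvk had 0.41 (SE 0.17) and the sterol demethylase gene Cyp51 had 0.46 (SE 0.20). In edgeR the adjusted p was at least 0.858 for each.

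Among lipoprotein receptors and their adaptors, 6 of 12 were lower (median -0.056), against 45.7% of all tested genes. At an unadjusted edgeR p under 0.05, 2 of the 12 were lower, against 3.07% of all. Those were Lrp1, a broad receptor for lipoprotein remnants (-0.77, SE 0.26), and Amn, the partner of cubilin (-0.81, SE 0.25). Pdzk1, which anchors SR-BI, had -0.70 (SE 0.33). Of 7 tested genes of cholesteryl ester and oxysterol metabolism 2 were lower, against 45.7% of all tested genes, and 5 were higher (median 0.057). Ch25h, which makes an oxysterol, had 1.31 (SE 0.55) from 1.47 CPM.

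Other transporters of ABC classes A and G had a median of -0.067 over 12 tested genes. Abca3 and Abca7 were lower at an unadjusted edgeR p under 0.05 (-0.52 each, SE 0.21 and 0.19), as were 3.07% of all tested genes. Of 8 transcription factors of sterol absorption genes 6 were lower (median -0.15), against 45.7% of all tested genes, and 1 was lower at that level. Gata4, a factor of the upper small intestine and one of the proximal markers above, was at 7.22, 9.70 and 1.79 CPM under the GFP label and at 1.115, 0.738 and 1.08 CPM under the PKCzeta label, which separated only by the step from 1.79 to 1.115 CPM (-2.67, SE 0.58). Hnf4a, a factor of enterocyte genes, was at 559 ± 44.8 and 446 ± 52.7 CPM (-0.33, SE 0.17), without overlap. Adjusted p values in edgeR were 0.858 to 0.917 for these 4.

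**Figure D5:**
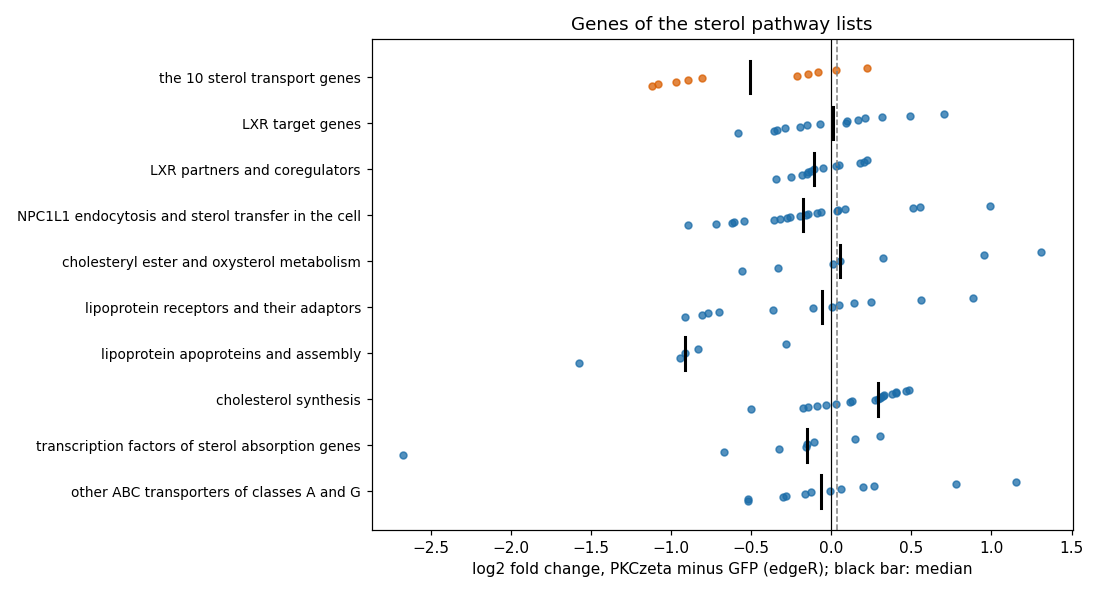
Log2 fold change of every tested gene of the 9 lists, and of the 10 sterol transport genes (orange), with each list's median as a black bar and the median of all tested genes as a dashed line. The medians run from -0.91 for lipoprotein assembly to 0.29 for cholesterol synthesis, and no gene shown passed an adjusted p of 0.05 in edgeR.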

How the data were processed

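Total RNA of 6 mouse small intestine samples was sequenced after depletion of ribosomal RNA, with a strand-keeping library kit, per the labels' protocols. The submitters' processing notes name mm10 as the build and FastQC, Trimmomatic, HISAT2 and StringTie as tools. Their versions and the counting program are not given in the sources used here. Per the file headers, the table gives each gene's read count, FPKM and TPM in every library, as the authors made them. The deposited counts are whole and not normalised. The deposited FPKM and TPM values are scaled to length and depth by the authors. TPM was used for levels across genes and in alternatives, and FPKM only to check the order of levels.

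The count test was edgeR 4.0.16 under R 4.3.3 (filterByExpr, TMM, robust quasi-likelihood F test, two-sided, Benjamini-Hochberg over 18456 genes, threshold 0.05). The biological coefficient of variation was 0.354. Exact tests used log2 CPM with a prior count of 2, over 10 members, 9 ratios and 20 marker-relative levels, each family adjusted by Benjamini-Hochberg. Of the single-gene exact tests, 5 members reached 0.1 (adjusted p = 0.2). Alternatives used DESeq2 1.42.0 and limma 3.58.1. The members and lists were chosen with earlier results of these data known. Named genes are the 10 members, up to 3 genes per list with the smallest p and at least 1 CPM, the 5 genes closest to Abcg8 and Npc1l1, and markers. Positions and windows are from RefSeq, and exons from GENCODE, both on GRCm38. In 1 simulation of this comparison over 18456 genes, 50 genes each were changed 1.5-, 2-, 4- and 8-fold together. There edgeR recovered 18% of the 50 genes changed 2-fold and 90% of the 50 changed 4-fold, with 12 false calls among 115. The adjusted p depends on how many genes change, and edgeR called 0 genes in the data, so these shares need not hold for them.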

Additional observations from a re-analysis of the deposited data

How the results depend on the processing

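Npc1l1, Soat2, Abca1, Abcg5, Abcg8 and Nr1h2 kept a log2 fold change below 0 under all 18 alternatives tried, leaving out each library included. Nr1h2 came close to 0, with a range of -0.40 to -0.0056 and its value nearest 0 on log2(TPM + 1). The range was -1.23 to -0.80 for Abcg8, -1.11 to -0.58 for Abcg5, -1.37 to -0.82 for Npc1l1, -0.96 to -0.36 for Soat2 and -1.24 to -0.64 for Abca1, and the enterocyte covariate gave the value nearest 0 for Abcg8, Abcg5, Npc1l1 and Soat2 and the one farthest from 0 for Abca1. DESeq2 called 76 of 18456 genes, 36 lower and 40 higher, and gave no adjusted p to 2175. Of the 76, 1 was a member, while edgeR and limma called 0 under every alternative. With the enterocyte score as a covariate, 2 members were lower at an unadjusted p under 0.05, against 5, and without a single library the count was 4 or 5. The share of all tested genes at that level was counted only in the main fit. The median of all genes moved by 0.18 with pan-epithelial scaling, by 0.11 on log2(TPM + 1) and by 0.20 on log2(TPM + 0.1).

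Directions near 0 turned, and the cause was not tested. Under the enterocyte covariate these were Scarb1 (-0.063), Abcg1 (-1.28), Nr1h3 (0.14) and Mylip (0.19). In limma voom they were Abcg1 (-0.36) and Mylip (0.21). With pan-epithelial scaling Nr1h3 had 0.077 and Mylip 0.026, on log2(TPM + 1) 0.10 and 0.22, and on log2(TPM + 0.1) 0.10 and 0.24. The differences behind the exact tests turned on log2(TPM + 1) for Abcg1 (0.072) and Nr1h3 (0.10). Without Lct, chosen after seeing the data, the level relative to enterocyte markers turned for Soat2 (-0.073), Abca1 (-0.15) and Abcg5 (-0.24). Leaving out each library gave ranges of -0.0067 to 0.42 for Scarb1, -0.48 to 0.45 for Abcg1, -0.29 to 0.084 for Nr1h3 and -0.37 to 0.29 for Mylip. The ratios ranged from -0.13 to 0.40 for Abcg8 to Npc1l1, -0.020 to 0.48 for Abcg5 to Npc1l1, -0.49 to 0.062 for Abcg8 to Abca1 and -0.0021 to 0.26 for Nr1h3 to Nr1h2. Of the 9 list medians, those of lipoprotein assembly (-1.14 to -0.49) and cholesterol synthesis (0.13 to 0.50) kept their sign under all 18 alternatives, and the other 7 turned under at least 1.

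No paired analysis was possible because the replicate numbers of the labels are not shared between the groups. Scarb1 had 132 to 377 reads per library and Abcg1 189 to 972, and whether depth or the spread between libraries limits them was not tested.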
